A study of Mus musculus with 78 samples.

Results

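Removing arginine for 3 h changed which mRNAs of activated mouse CD8+ T cells sat on polysomes relative to how much of each mRNA the cells held. The measure, translational efficiency (TE), is the ratio of polysome RNA to total RNA without arginine (NoArginine) against the same ratio in complete medium (Control), taken for each gene as the interaction of fraction and medium. All genes of the deposited table with enough counts were used, 13072 of 14695. TE fell most widely among mRNAs for cytosolic ribosomal proteins, of which 73 of 83 were called lower, and among mRNAs for the mitochondrial ribosome and the respiratory chain. It was called higher for 13 of 22 genes on the list of aminoacyl-tRNA synthetases and their cofactors. The cationic amino acid transporter Slc7a3 and the transferrin receptor Tfrc were also called higher. Of all genes tested, 6.72% were called higher and 9.81% lower.

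The cells were primary CD8+ T cells of C57BL/6J mice, taken from spleen and lymph node and used on day 3 of activation. In the NoArginine group they spent 3 h in medium lacking arginine, and in the Control group 3 h in complete medium. NoBCAA (without branched-chain amino acids), NoGlutamine and NoMethionine cells serve as further comparisons, and glucose-free cells entered the same fit. From each lysate, 50 µL gave total RNA, and 400 µL was spun through a 15 to 45% sucrose gradient, of which fractions 9 to 13 of 15 were pooled as polysome RNA. All lysis and gradient buffers held cycloheximide, which halts ribosomes on mRNA. Each group had 3 lysates and therefore 3 total RNA and 3 polysome libraries, which gives 12 libraries for NoArginine and Control, of 60 in the deposited table and 78 in the labels. The labels leave unsaid if replicates are separate cultures or animals, so a p-value here covers no more than the spread among the libraries.

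As background, ribosomes that translate an mRNA at the same time form a polysome, and an mRNA whose initiation slows moves to lighter gradient fractions. Cells sense missing amino acids through the kinase GCN2, which phosphorylates the initiation factor eIF2 and starts the integrated stress response (ISR) with the transcription factor ATF4, and through the kinase complex mTORC1, which promotes translation of mRNAs with a 5′ terminal oligopyrimidine (TOP) motif. Ribosomal protein and elongation factor mRNAs are the classic TOP mRNAs. Arginine is a direct input to mTORC1 through sensors that include Castor1. It is also the precursor of ornithine and the polyamines.

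Total RNA libraries of NoArginine and Control held 15144700 to 30637500 counts (rounded) and polysome libraries 38298800 to 54272900. Levels are CPM, counts scaled to a common library total, and are therefore shares of a library, so a change in the overall amount of RNA on polysomes would not be visible, and in bulk RNA fewer cells of a type cannot be told from less RNA per cell. All 13 T cell markers were in the table, at a summed 3635 to 4634 CPM in every NoArginine and Control library. Of B cell, myeloid, NK cell and CD4 T cell markers, 2 of 7, 2 of 10, 1 of 5 and 2 of 4 were in the table, with sums below 16.2 CPM in each library, and none of 6 erythroid markers was. The total RNA library of NoArginine replicate 2 stood apart. It was the shallowest, and mitochondrial ribosomal RNA took 4.98% of its counts, against 1.74% and 1.56% in the other NoArginine libraries and less than 1.56% in every Control library.

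At a Benjamini-Hochberg adjusted p of 0.05 by edgeR's quasi-likelihood test, TE differed for 2162 genes, 16.5% of those tested. It was higher without arginine for 879 genes (6.72%) and lower for 1283 (9.81%). With total and polysome library of 1 lysate treated as a block, the counts were 1401 higher and 1624 lower. The split depends on scaling, because scale factors computed without ribosomal RNA and mitochondrial entries gave 1408 higher and 893 lower. The counts also depended on single lysates. There were 142 higher and 384 lower calls without NoArginine replicate 1, 282 and 701 without replicate 2, 1351 and 1552 without replicate 3, 553 and 632 without Control replicate 2, and 469 and 902 without Control replicate 3. Without only the total RNA library of NoArginine replicate 2 there were 532 and 963. The changes were moderate. The median log2 change was 0.45 among genes called higher and -0.49 among those called lower, with a median standard error of 0.15 over all genes, and only 8 called genes rose by over 1 on the log2 scale whereas 107 fell by that much.

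Most TE calls came with a change in polysome RNA, which is part of the TE ratio, and without one in total RNA. Most genes with no TE call were not called in total RNA either (87.5%). In polysome RNA, 15% of genes with no TE call were higher and 14.1% lower. Fitted alone, polysome RNA differed for 5034 of 12417 genes (40.5%) and total RNA for 1168 of 12642 (9.24%). The total RNA count was 637 without NoArginine replicate 1, 646 without replicate 2, 617 without Control replicate 1 and 710 without Control replicate 3. Of the 879 genes with higher TE, 722 (82.1%) were higher in polysome RNA and 729 (82.9%) were not called in total RNA. Of the 1283 with lower TE, 1137 (88.6%) were lower in polysome RNA and 1195 (93.1%) were not called in total RNA. In 58 genes (4.52%) the lower TE instead came with more total RNA and no call in polysome RNA. In 73 genes (8.3%) the higher TE came with less total RNA and no call in polysome RNA. A further 363 genes were higher in both fractions with no TE call, and 265 were lower in both.

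**Figure D1:**
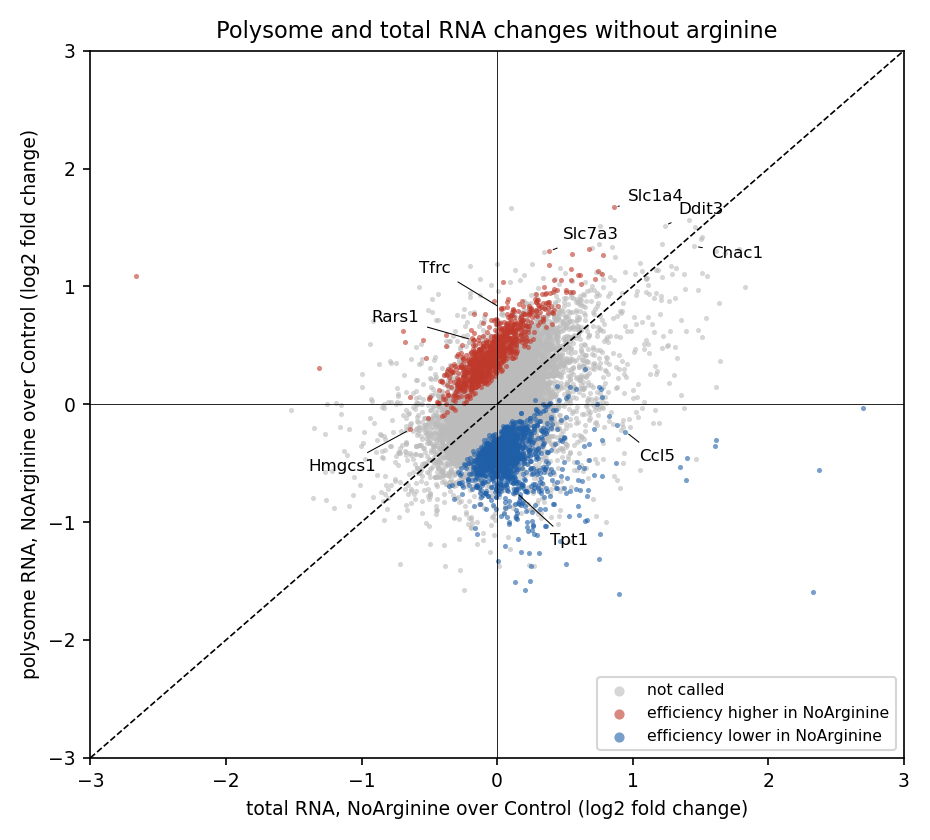
Log2 change in polysome RNA (vertical axis) against log2 change in total RNA (horizontal axis), NoArginine over Control, one point for each of 12195 genes fitted in both fractions and for TE, 1 of which lies outside the axes. Genes called for TE lie above and below the main cloud along the vertical axis, with total RNA changes mostly near 0.

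Ribosomal protein mRNAs gave the most uniform change. These proteins build the small (40S) and large (60S) ribosomal subunits. TE was lower for 33 of 34 tested 40S genes and 40 of 49 60S genes and higher for none, with list medians of -0.63 and -0.58 on the log2 scale, where all genes had a median of -0.04 and 9.81% were called lower. None of these mRNAs was called in total RNA (0 of 83), where 5.1% of all genes were higher and 4.14% lower. In polysome RNA 32 of the 40S and 42 of the 60S genes fell, where 21.6% of all genes did. The log2 polysome to total ratios of the 3 lysates did not overlap between the media for 77 of the 83, where 18.7% of all genes had no overlap in the lower direction. The counts were 22 and 29 without NoArginine replicate 1, and at least 29 and 37 under every other alternative.

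Rps23 of the small subunit shows how this looked in single libraries. It had 343, 397 and 449 CPM in NoArginine polysomes, against 642, 735 and 666 CPM in Control polysomes. In total RNA it had 1702, 1561 and 1659.5 CPM without arginine and 1611, 1648 and 1638 CPM in Control. The polysome levels were thus separate between the media and the total RNA levels overlapped. TE fell by 0.79 ± 0.12 on the log2 scale (SE, edgeR adjusted p = 9.7e-05).

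Rpl4 of the large subunit had 1928, 2004 and 2203 CPM in NoArginine polysomes and 2911, 3133 and 2898 CPM in Control polysomes, a TE change of -0.56 ± 0.08 (edgeR adjusted p = 7.1e-05). The larger decrease of Rpl34, at -0.90 ± 0.14, rested on 261, 299.8 and 339 CPM in NoArginine polysomes and 486, 542 and 502 CPM in Control polysomes. In both genes every NoArginine polysome library was below every Control one. Rps7, Rps3a1 and Rps24 fell by 0.68 to 0.88, and Rpl28, Rpl14, Rpl37a and Rpl21 by 0.57 to 0.88. All of these genes were called under each alternative run. The 10 members not called included Rplp1, Rpl41, Rps10, Rpl6, Rpl5, Rplp0, Rpl36al, Rpl3 and Rpl24, and some of them were abundant. Rpl3 (-0.08 ± 0.07) had 2011, 1944 and 2087 CPM in NoArginine polysomes and 2212, 2180 and 2174 CPM in Control polysomes, and Rplp0 (-0.23 ± 0.12) also missed the threshold. Ribosomal protein mRNAs have many processed pseudogenes, so reads may be split between copies, and Rps16 (-1.41 ± 0.31) is uncertain for this reason and because its total RNA level was 676, 1313 and 636 CPM without arginine and 371, 600.1 and 686 CPM in Control.

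The annotated transcript starts of some of these genes are shown because the TOP motif, a C followed by pyrimidines at the very start of the mRNA, is the sequence feature through which mTORC1 is known to act on them. Each line gives 10 bases before and 20 from the RefSeq start on the GRCm38.p6 build, in the direction of the gene, and capitals mark a C followed by at least 5 pyrimidines whose first base lies within 4 bases of that start. Rps23 lies at chr13:90923112-90923141 (plus strand), Rpl14 at chr9:120571507-120571536 (plus), Rpl28 at chr7:4792955-4792984 (plus) and Rpl34 at chr3:130730379-130730408 (minus, the first of its annotated starts). Rpl4 at chr9:64173377-64173406 (plus) and Tpt1 at chr14:75845246-75845275 (plus) have no such run in this window.
Rps23: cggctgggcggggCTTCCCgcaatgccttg
Rpl14: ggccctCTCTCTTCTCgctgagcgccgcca
Rpl28: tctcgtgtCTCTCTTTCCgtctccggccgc
Rpl34: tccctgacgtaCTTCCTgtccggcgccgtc
Rpl4: tttcctgtgggagcagccgggtagagagga
Tpt1: cgctgacgacagttccgggggagccgcgga

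This motif, searched on the gene's own strand only, was found at the annotated start of 976 of 8592 tested protein-coding genes (11.4%) and of 28 of 62 ribosomal protein genes (45.2%). It was found for 16.2% of genes with lower TE, 14.0% once ribosomal proteins were left out, and for 9.05% of genes with higher TE. Outside the ribosomal proteins the motif separated little. Of 948 such genes with it, 12.1% were called lower and the median TE change was -0.01, and of 7582 without it, 9.35% were called lower with a median of -0.01. Among ribosomal proteins, 27 of 28 genes with the motif and 28 of 34 without it were called lower, with medians of -0.65 and -0.57. Annotated starts can differ by a few bases from those used in these cells, which were not measured.

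Other mRNAs usually counted as TOP mRNAs divided. TE fell for 9 of 20 and rose for none, where 9.81% and 6.72% of all genes did, with a median of -0.21. Tpt1, which encodes the translationally controlled tumour protein, had 233, 269.7 and 283 CPM in NoArginine polysomes and 419, 484 and 434 CPM in Control polysomes, and fell by 0.90 ± 0.13 (edgeR adjusted p = 9.7e-05). Eef1b2, a subunit of the exchange factor for elongation factor 1, fell by 0.74 ± 0.11, and the nucleolar chaperone Npm1 by 0.60 ± 0.10. Btf3 and Naca, which form the nascent polypeptide-associated complex, fell by 0.55 and 0.49, and the scaffold Rack1, which sits on the small subunit and is also counted among the 40S proteins above, by 0.46. These 6 genes were called under every alternative.

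Several elongation factors on the list did not pass the test. Eef1a1, which carries aminoacyl-tRNA to the ribosome, had polysome to total log2 ratios of -1.64, -1.56 and -1.72 without arginine and -1.40, -1.50 and -1.57 in Control, a TE change of -0.15 ± 0.08 (edgeR adjusted p = 0.2). Eef2, the translocation factor, had a TE change of 0.04 ± 0.10, and Pabpc1, the poly(A)-binding protein, one of -0.33 ± 0.22. Eef1g (0.04 ± 0.07) and Eif4b (0.05 ± 0.11), named here after their values were seen, were also close to 0. The list thus held members near the ribosomal proteins and members near the median of all genes.

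Of 36 initiation factor mRNAs, 6 fell and 0 rose, where 9.81% and 6.72% of all genes did, and the list median of -0.06 was near the -0.04 of all genes. Eif1, which helps the scanning ribosome choose the start codon, was the clearest. Its total RNA rose, with 219.8, 271 and 219.8 CPM without arginine and 161, 183 and 186 CPM in Control, while in polysomes it had 214, 199.7 and 221 CPM without arginine and 291, 259 and 259.5 CPM in Control. The TE change was -0.78 ± 0.11 (edgeR adjusted p = 7.1e-05). Eif3k, Eif5a, Eif1ax, Eif3h and Eif3f fell by 0.24 to 0.45, each call being lost without at least NoArginine replicate 1. Without NoArginine replicate 1, only 1 of the list was called lower, and 3 were without replicate 2 or without Control replicate 2.

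**Figure D2:**
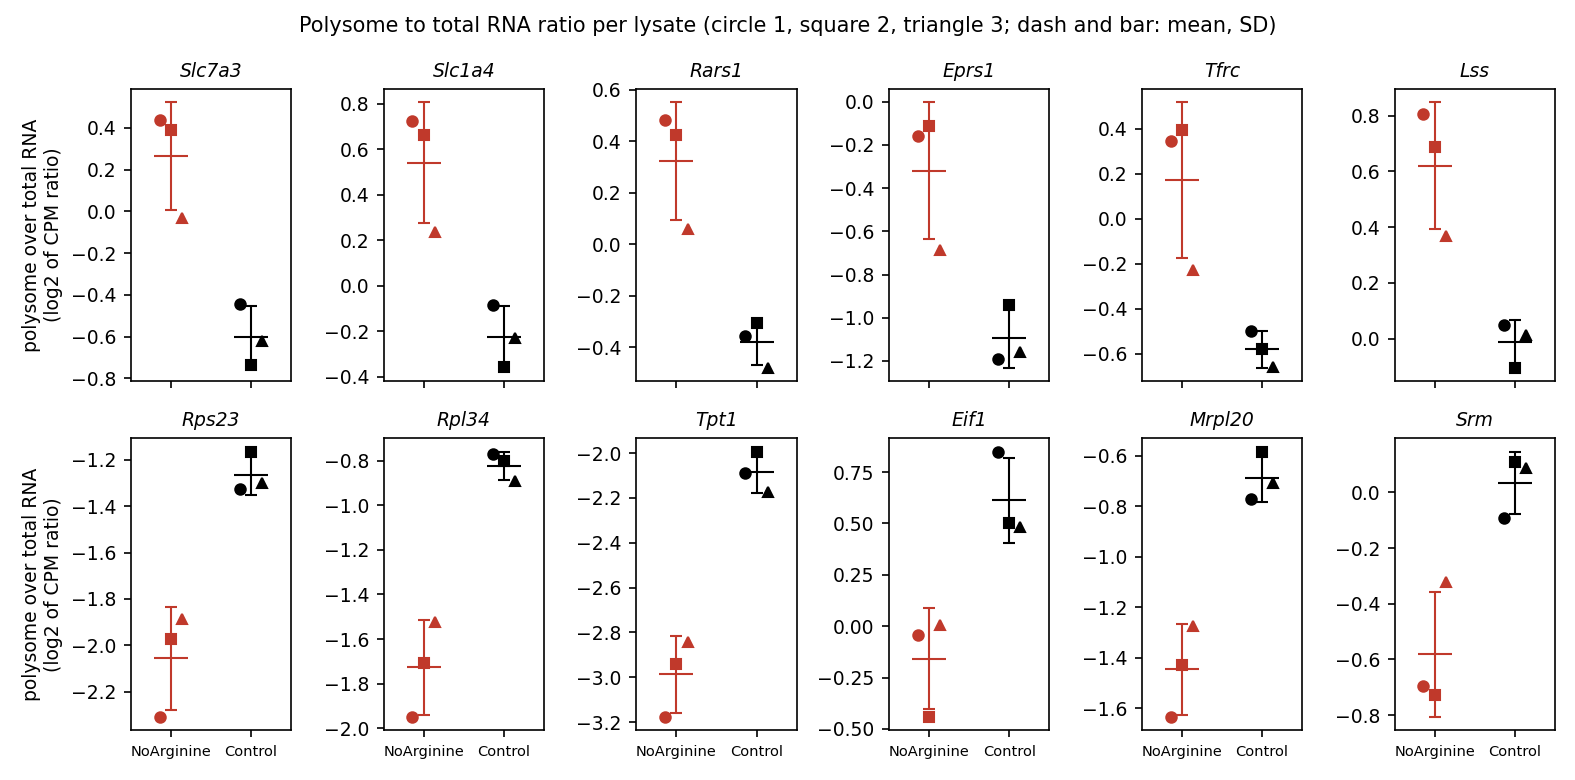
Log2 ratio of polysome to total CPM in each lysate, NoArginine at the left and Control at the right of each panel, for 6 genes called higher (upper row) and 6 called lower (lower row). Markers are lysates 1 (circle), 2 (square) and 3 (triangle), and the dash and bar give their mean and SD. The 3 NoArginine lysates lie on one side of the 3 Control lysates in every panel. For Slc7a3, Slc1a4, Rars1, Eprs1 and Tfrc this was fixed in advance, because the rule that named them required ratios without overlap.

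Nuclear mRNAs for the mitochondrial ribosome and the respiratory chain had more members lower than higher, as the ribosomal proteins did. The mitochondrial ribosome translates the few proteins that mitochondrial DNA encodes, and its own proteins are made in the cytosol. TE was lower for 31 of its 76 tested proteins and higher for 1, where 9.81% and 6.72% of all genes were. The 1 higher was Mrps31 (0.48, named after its values were seen), and the list median was -0.34. Polysome RNA fell for 52, where 21.6% of all genes did, and total RNA was called lower for 1, where 4.14% were. The small subunit had 15 of 29 genes lower and the large subunit 16 of 47. Mrpl20 had 30.5, 35.1 and 38.1 CPM in NoArginine polysomes, all below the 52.6, 60.3 and 55.5 CPM in Control polysomes, while total RNA lay between 89.9 and 94.9 CPM in all 6 libraries, and its TE fell by 0.76 ± 0.11 (edgeR adjusted p = 9.7e-05). Mrpl30, Mrpl14, Mrps35, Mrpl37 and Mrps25 fell by 0.50 to 0.87.

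Of the nuclear-encoded subunits of the respiratory chain and ATP synthase, 42 of 77 had lower TE and 3 higher, with a median of -0.46. Over all genes 9.81% were lower and 6.72% higher. Cytochrome c oxidase had 8 of 10 subunits lower and ATP synthase 12 of 16, while NADH dehydrogenase (complex I) had 17 of 37 and the cytochrome bc1 complex (complex III) 4 of 9. The accessory complex I subunit Ndufb5 had 25.7, 29.2 and 32.0 CPM in NoArginine polysomes and 43.7, 52.7 and 47.7 CPM in Control polysomes. Its total RNA overlapped, with 111, 102 and 114 CPM without arginine and 97.5, 112 and 113 CPM in Control, and TE fell by 0.75 ± 0.14 (edgeR adjusted p = 0.0006). Atp5mc2, a subunit of the proton-carrying ring of ATP synthase, fell by 0.73, and Ndufs5, Ndufab1, Atp5mc3 and Atp5pb by 0.53 to 0.80.

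The 3 members that rose, Ndufs1 (0.65), Sdha (0.49) and Atp5f1a (0.29), are named after their values were seen. Ndufs1 and Sdha are large catalytic subunits of complexes I and II. Ndufs1 had log2 ratios of 0.62, 0.78 and 0.20 without arginine and -0.12, -0.04 and -0.21 in Control, with no overlap. The 10 mitochondrially encoded mRNAs, which cytosolic ribosomes do not translate, gave no TE call, with mt-Co1 at 0.27 and mt-Nd1 at -0.13.

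The size of these mitochondrial counts depended on single lysates. The mitochondrial ribosome had 10 members lower without NoArginine replicate 1, 18 without replicate 2, 17 without Control replicate 2, and 42 with the lysate as a block. For the respiratory chain the same settings gave 10, 24, 20 and 54. Without Control replicate 3, 26 genes of the respiratory chain were lower. The order of the NoArginine lysates was the same for both lists and for the ribosomal proteins. Against the Control mean, the list median of the log2 ratio was -0.83, -0.59 and -0.45 in NoArginine replicates 1, 2 and 3 for 40S genes, -0.74, -0.56 and -0.49 for 60S genes, -0.49, -0.27 and -0.22 for the mitochondrial ribosome and -0.67, -0.39 and -0.28 for the respiratory chain. Over all genes it was -0.05, -0.04 and -0.01.

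**Figure D3:**
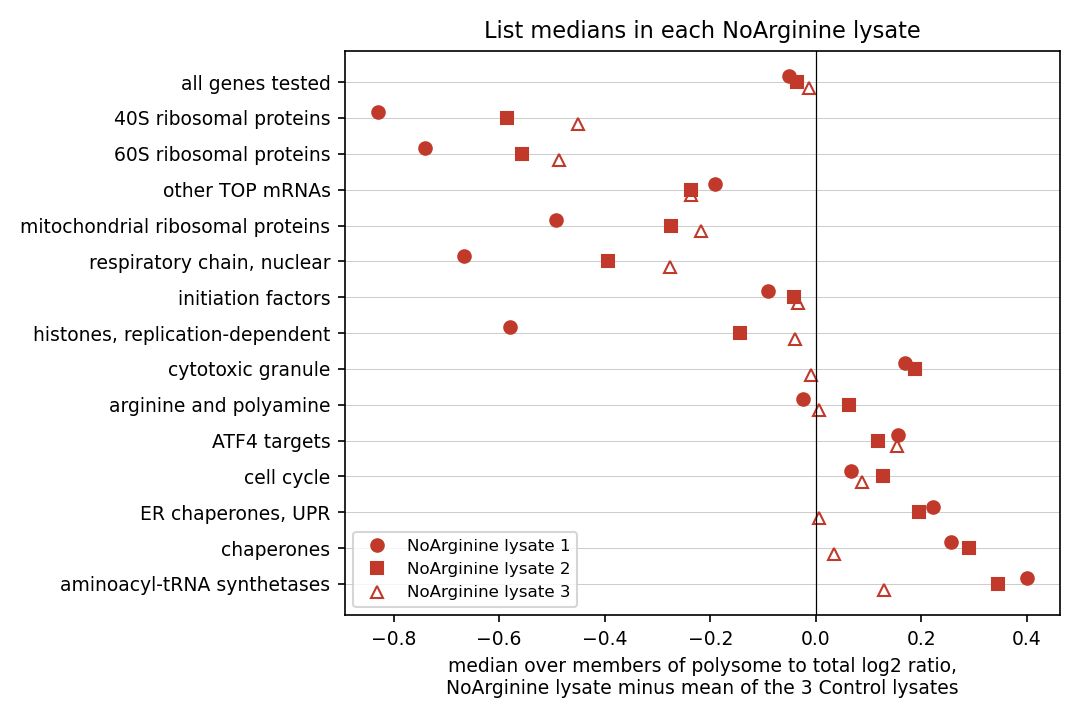
Median, over the members of each gene list, of the log2 polysome to total ratio in a NoArginine lysate minus the Control mean, with a circle for replicate 1, a square for replicate 2 and an open triangle for replicate 3. All 3 lysates lie below 0 for ribosomal, mitochondrial ribosomal and respiratory chain lists and above 0 for aminoacyl-tRNA synthetases, and replicate 1 lies farthest from 0 in each of these.

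Slc7a3, a cationic amino acid transporter that carries arginine, had the highest TE change among the genes named by rank. It had 83.0, 78.9 and 54.7 CPM in NoArginine polysomes, against 28.6, 28.8 and 32.0 CPM in Control polysomes. Total RNA also rose, with 61.3, 60.2 and 55.9 CPM without arginine and 38.9, 48.1 and 49.3 CPM in Control. The groups did not overlap in either fraction, and TE rose by 0.90 ± 0.17 (edgeR adjusted p = 0.00063). Slc7a1, the main cationic transporter of many cells, rose in polysome RNA by 0.92 and in total RNA by 0.64, so that TE, at 0.27 ± 0.18 (edgeR adjusted p = 0.33), did not pass, nor did it under any of the 16 alternatives. Slc3a2, the heavy chain shared by several amino acid exchangers, rose in both fractions and in TE by 0.62 ± 0.16, a call lost without NoArginine replicate 1 alone.

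Genes of arginine and polyamine metabolism were called in both directions. Of the 27 tested, 5 rose and 5 fell, where 6.72% and 9.81% of all genes did, and the list median was 0.02. Oat, which converts ornithine towards glutamate and proline, rose by 0.52 ± 0.11, with 231, 218 and 183 CPM in NoArginine polysomes and 147, 143 and 141 CPM in Control polysomes. Prmt5, an arginine methyltransferase, rose by 0.48 ± 0.11, a call lost without NoArginine replicate 1. The spermidine synthase Srm fell by 0.62 ± 0.11, with 146, 150.2 and 167 CPM in NoArginine polysomes and 233, 279 and 264 CPM in Control polysomes. In Oat and Srm, as in Prmt5, the polysome levels did not overlap. The list had 3 higher and 2 lower without NoArginine replicate 1, and 2 lower without Control replicate 2.

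The other decreases on that list were in polyamine synthesis and in the factor that polyamines modify. Odc1, which makes putrescine from ornithine, fell by 0.29 ± 0.08 in TE and also fell in both fractions. The spermine synthase Sms fell by 0.32, Eif5a, the factor that carries the hypusine residue made from spermidine, by 0.42, and Dhps, which makes that residue, by 0.46. Srm, Oat and Dhps were called under every alternative. Eif5a was lost without NoArginine replicate 1 or 2 or Control replicate 2, and Odc1 without NoArginine replicate 1, without Control replicate 2 and in a fit of only the compared libraries. Azin1, the antizyme inhibitor, and Ass1, which makes the direct precursor of arginine, had TE changes of 0.21 ± 0.14 and -0.16 ± 0.10, neither past the threshold. Oaz1 and Arg2 were not among the genes tested.

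Aminoacyl-tRNA synthetases attach amino acids to tRNA. Of the 22 listed synthetases and cofactors of their complex, 13 rose and 1, the cofactor Eef1e1 (-0.42, named after its value was seen), fell. The median was 0.25, and of all genes 6.72% rose and 9.81% fell. Rars1, the synthetase for arginine, had 214, 192 and 173 CPM in NoArginine polysomes, against 139, 134 and 130.1 CPM in Control polysomes. In total RNA it had 153, 143 and 166 CPM without arginine and 178, 166 and 181 CPM in Control, and TE rose by 0.71 ± 0.11 (edgeR adjusted p = 0.00013).

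Rars1 did not stand alone. Eprs1, which charges tRNA with glutamate and proline, rose by 0.78 ± 0.14, Mars1 (methionine) by 0.59 ± 0.12, Tars1 (threonine) by 0.56, Nars1 (asparagine) by 0.48 and Sars1 (serine) by 0.31. Kars1, for lysine, had a change of 0.03 ± 0.08. Polysome RNA rose for 14 of the 22 and total RNA for 1, where 19% and 5.1% of all genes rose. These differences thus came with polysome levels. The number called higher was 3 without NoArginine replicate 1, 4 without replicate 2, 8 without any one Control lysate or without the total RNA library of NoArginine replicate 2, and 6 in a fit of only the compared libraries. Rars1, Eprs1 and Mars1 were called under all alternatives, whereas Tars1, Nars1 and Sars1 were each lost without NoArginine replicate 1.

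The stress response genes controlled by ATF4 were higher in both fractions more often than in their ratio. Of 35 tested, polysome RNA rose for 28 and total RNA for 23, where 19% and 5.1% of all genes rose. TE rose for 9 and fell for 1, where 6.72% and 9.81% of all genes did. Ddit3, the stress transcription factor CHOP, had 43.2, 47.3 and 52.7 CPM in NoArginine polysomes and 14.8, 18.1 and 17.8 CPM in Control polysomes. In total RNA it had 43.4, 44.0 and 40.8 CPM without arginine and 18.3, 18.6 and 17.7 CPM in Control. Both fractions were separate between the media, but their ratio changed by only 0.26 ± 0.11 (edgeR adjusted p = 0.11), which passed the threshold under 2 of 16 alternatives, both other TMM scalings.

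Chac1, which degrades glutathione, and Trib3, a feedback inhibitor of the pathway, rose in polysome RNA by 1.34 and 1.07 and in total RNA by 1.46 and 1.11, with TE changes of -0.13 and -0.05. Ppp1r15a, the phosphatase subunit that restores eIF2, had a TE change of 0.24 (edgeR adjusted p = 0.075) and passed under 5 of 16 alternatives, both blocks among them, and Atf5, a related transcription factor, one of 0.03. Atf4, whose upstream reading frames are known to raise its translation when eIF2 is phosphorylated, had log2 ratios of -0.55, -0.31 and -0.26 without arginine and -0.65, -0.51 and -0.65 in Control. Its TE change of 0.23 ± 0.09 missed the threshold (edgeR adjusted p = 0.078) and passed it under 5 of 16 alternatives. Of 13 tested mRNAs with such reading frames, Eprs1 rose and Uchl3 fell, where 6.72% and 9.81% of all genes did. The number higher was 5 with the scaling that leaves out ribosomal RNA and mitochondrial entries, 4 with scaling within each fraction, 3 with the lysate as a block and 2 without NoArginine replicate 1, and Uchl3 lost its call without NoArginine replicate 1 and without Control replicate 2.

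The targets whose TE did rise were mainly transporters and enzymes. Slc1a4, which carries neutral amino acids, had 106, 104 and 71.7 CPM in NoArginine polysomes, against 29.3, 28.8 and 31.6 CPM in Control polysomes, and its TE rose by 0.79 ± 0.15 (edgeR adjusted p = 0.001). Its total RNA rose as well, with 64.4, 65.4 and 60.9 CPM without arginine and 31.1, 36.9 and 37.2 CPM in Control. Aldh1l2 (mitochondrial folate metabolism) rose by 0.58, Aldh18a1 (proline and ornithine synthesis) by 0.44 and Asns (asparagine synthetase) by 0.34. Mthfd2, another mitochondrial folate enzyme, fell by 0.42 ± 0.07, with total RNA higher and polysome RNA lower. Aldh1l2 and Asns were lost without NoArginine replicate 1, without replicate 2 and without Control replicate 3, and Aldh18a1 without NoArginine replicate 1 and without Control replicate 2. Of the list, 1 gene was called higher without NoArginine replicate 1, 4 without replicate 2, 4 without Control replicate 2 and 15 with the scaling that leaves out ribosomal RNA and mitochondrial entries.

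Genes of mTORC1 regulation were mostly not called, with 1 of 40 higher and 5 lower, where 6.72% and 9.81% of all genes were. Rheb, the small GTPase that activates mTORC1, fell by 0.63 ± 0.12. Its total RNA rose, with 94.1, 86.7 and 96.1 CPM without arginine and 61.5, 67.3 and 66.6 CPM in Control, while its polysome levels, 27.1, 29.1 and 31.3 CPM without arginine and 28.7, 35.8 and 31.2 CPM in Control, overlapped. The arginine sensor Castor1 fell by 0.40, the Ragulator subunits Lamtor2 and Lamtor4 by 0.53 and 0.58, and the methionine pathway sensor Bmt2 (SAMTOR) by 0.44, whereas Fnip1, a partner of folliculin, rose by 0.35. Rheb was called throughout. The number lower was 1 without NoArginine replicate 1, without replicate 2 or without Control replicate 3, and 2 without Control replicate 2 or in a fit of only the compared libraries.

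**Figure D4:**
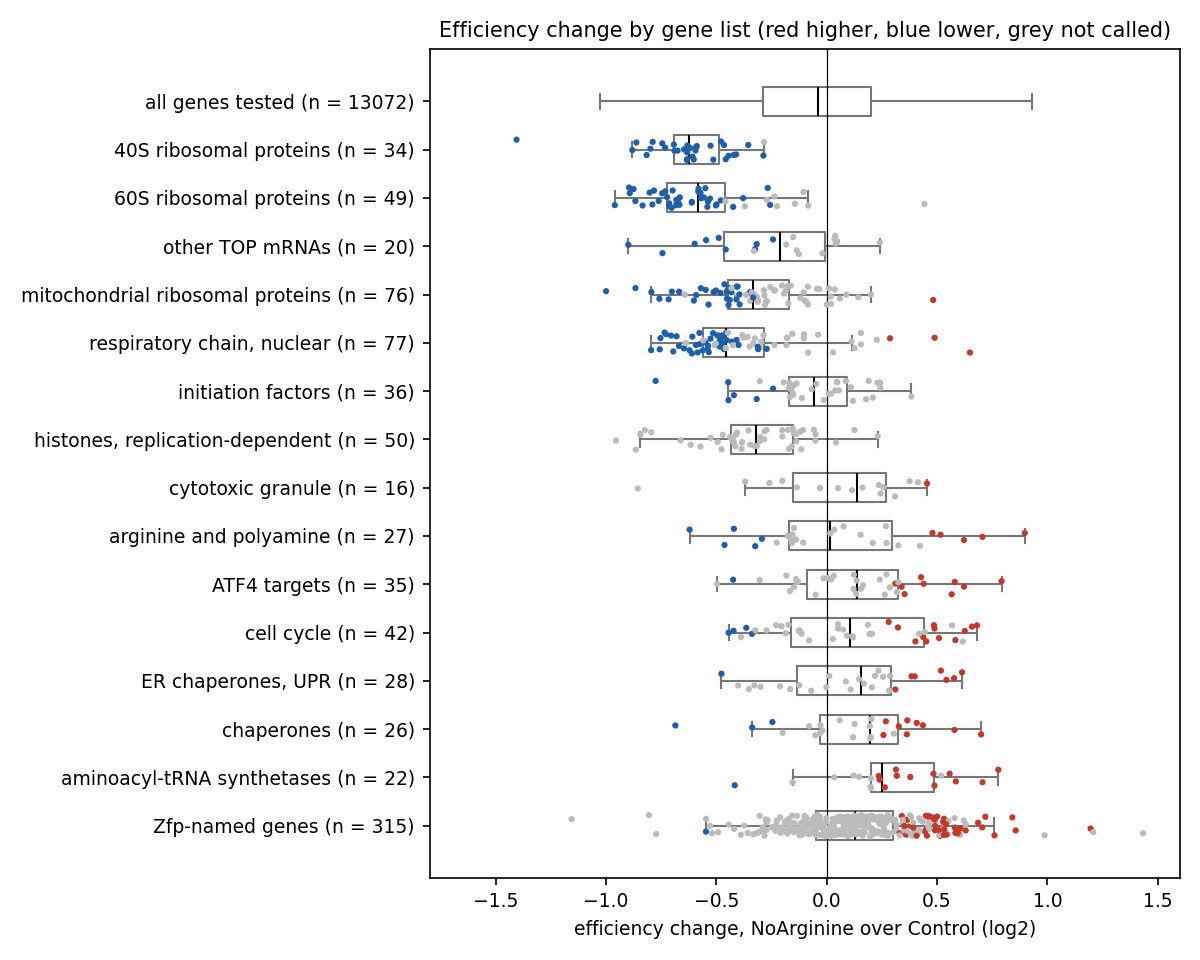
TE change, NoArginine over Control (log2, horizontal axis), by gene list, with all genes tested in the top row. Each point is a member, red where called higher, blue where called lower and grey where not called, and boxes give the median and quartiles with whiskers to the last value within 1.5 box lengths. Blue points fill the ribosomal protein lists, and 13 of 22 points are red for aminoacyl-tRNA synthetases.

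Several further groups had more members higher than lower, where 6.72% of all genes were higher and 9.81% lower. In the endoplasmic reticulum, 7 of 28 folding and stress genes rose and 1 fell. The chaperone Hsp90b1 had 1687, 1560 and 1117 CPM in NoArginine polysomes, all above the 858, 928 and 898 CPM in Control polysomes, and its TE rose by 0.61 ± 0.15. Hspa5 (BiP), Hyou1 and Pdia4 rose by 0.52 to 0.58. Without NoArginine replicate 1 none of the list was called higher (0 of 28), without NoArginine replicate 2 or Control replicate 2 there were 2, and in a fit of only the compared libraries 3. Of cytosolic and mitochondrial chaperones, 9 of 26 rose and 3 fell. Hsp90aa1, the inducible cytosolic HSP90, rose by 0.70 and its mitochondrial relative Trap1 by 0.58 ± 0.11, while Hspe1, the small partner of the mitochondrial chaperonin, fell by 0.69 ± 0.14. The number higher among chaperones was 2 without NoArginine replicate 1, 3 without replicate 2, without Control replicate 3 or in a fit of only the compared libraries, and 4 without the total RNA library of NoArginine replicate 2. The number lower was 1 in each of these. Hsp90aa1, Trap1 and Hspe1 were called in all of these.

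Of 24 cholesterol synthesis genes, 5 rose and 1 fell, with the same 6.72% and 9.81% over all genes. Lss, lanosterol synthase, rose by 0.64 ± 0.13 with lower total RNA, 171, 167 and 179.6 CPM without arginine and 235, 220.2 and 218 CPM in Control. Hmgcs1 rose by 0.41 ± 0.13 in TE, with total RNA lower by 0.64 on the log2 scale and no call in polysome RNA, and this call was lost under 6 of 16 alternatives. Insig1, the retention factor of the pathway, fell by 0.41. The list had 8 members higher with the lysate as a block, 2 without NoArginine replicate 2, and 3 without NoArginine replicate 1 or in a fit of only the compared libraries.

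The cell cycle list had 12 of 42 members higher and 4 lower, against 6.72% and 9.81% of all genes. Top2a, the topoisomerase of dividing cells, had 531, 482 and 405 CPM in NoArginine polysomes, all above the 322, 254 and 270.1 CPM in Control polysomes, and rose by 0.68 ± 0.14. The helicase subunits Mcm3 and Mcm2 rose by 0.66 and 0.58, and the mitotic kinesin Kif11 by 0.63. Birc5 (survivin) fell by 0.42. Top2a was called under every alternative, Mcm3, Mcm2 and Kif11 under all but the one without NoArginine replicate 1. Only 1 member was called higher without NoArginine replicate 1, 5 without replicate 2, 6 without Control replicate 3 and 7 without the total RNA library of NoArginine replicate 2. None of the list was lower without NoArginine replicate 1 or without Control replicate 2 (0 of 42), so Birc5 lost its call there. Zinc finger genes with a Zfp name were higher in 40 of 315 cases and lower in 1, with 6 higher without NoArginine replicate 1, 11 without replicate 2, 17 and 18 without Control replicates 1 and 3, and 20 without that total RNA library. Zfp953, Zfp719 and Zfp472 rose by 0.59 to 0.86.

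Genes of T cell function changed in small numbers. Of 27 activation receptors, 3 rose and 1 fell, where 6.72% and 9.81% of all genes did. With the lysate as a block 10 rose, and 1 did without NoArginine replicate 1, without replicate 2 or without Control replicate 3. Tfrc, the receptor through which T cells import transferrin iron, had 1637, 1623 and 1111 CPM in NoArginine polysomes, against 812, 868 and 837 CPM in Control polysomes. Its total RNA overlapped, with 1289, 1234 and 1301 CPM without arginine and 1148, 1299 and 1323 CPM in Control, and TE rose by 0.78 ± 0.15 (edgeR adjusted p = 0.00088). Cd69 and Ctla4, an early activation marker and an inhibitory receptor, rose by 0.47 and 0.46, and Cd3e of the T cell receptor complex fell by 0.41. Those 3 calls were each lost without NoArginine replicate 1, without replicate 2 and without Control replicate 3. Cd3e was lost under 8 of 16 alternatives in all, among them both other TMM scalings and a fit of only the compared libraries.

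Of 14 cytokines and chemokines, TE rose for 1, Tnf, and fell for 1, Ccl5, near the 6.72% and 9.81% of all genes. Tnf had 96.1, 95.5 and 78.6 CPM in NoArginine polysomes and 48.0, 53.2 and 56.1 CPM in Control polysomes, and rose by 0.50 ± 0.13, a call lost without NoArginine replicate 1. Ccl5, a chemokine of memory and effector CD8+ cells, had more total RNA, 15.5, 20.0 and 14.8 CPM without arginine and 7.67, 8.68 and 9.58 CPM in Control. In polysomes it had 4.04, 4.57 and 5.15 CPM without arginine and 5.19, 5.39 and 5.73 CPM in Control, so that TE fell by 1.19 ± 0.20 (edgeR adjusted p = 0.00026). Ifng, the main effector cytokine, had a TE change of 0.27 ± 0.14 (edgeR adjusted p = 0.21), Gzmb (granzyme B) one of 0.05 ± 0.14 and Prf1 (perforin) one of 0.31 (edgeR adjusted p = 0.15). Ifng and Prf1 passed the threshold with the lysate as a block. Of 29 T cell transcription factors, 2 rose and 3 fell, also near the shares of all genes. Over the alternatives 0 to 3 rose and 2 to 4 fell. Tcf7 and Id2, of memory and effector differentiation, fell by 0.58 ± 0.11 and 0.57 ± 0.13. Irf4 rose by 0.39 (lost without 4 of the 6 lysates, left out singly), and Myc had a change of 0.11.

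Replication-dependent histone mRNAs were called for their level and not for TE. Total RNA rose for 49 of 50 tested and polysome RNA for 27, where 5.1% and 19% of all genes rose. No gene was called for TE, where 6.72% of all genes were higher and 9.81% lower. However, 47 of the 50 changes were below 0, as were 7069 over all 13072 genes. Standard errors were 0.21 for H2bc14, 0.36 for H4c6 and 0.62 for H2ac11, where the median over all genes was 0.15. The missing calls therefore do not show that TE was unchanged. The list median of TE was -0.32. That median lay between -0.51 and 0.01 over the alternatives. H1f2, a linker histone, rose by 1.11 in total RNA and 1.01 in polysome RNA, with a TE change of -0.12. Histone genes are close copies of one another, so reads may be shared between them.

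Among called genes with a symbol, a mean of at least 5 CPM and ratios that did not overlap, the 3 lowest TE changes belonged to entries that share sequence with ribosomal RNA. Rn18s-rs5 fell by 3.92, Mir6236 by 2.94, and the change of Lars2 was -2.74, all on the log2 scale. Lars2 had 16.6, 138 and 9.01 CPM in NoArginine total RNA and 8.33, 9.11 and 7.17 CPM in Control total RNA. Without NoArginine replicate 2 its change was -0.71 (edgeR adjusted p = 0.40), so the call rested on that lysate, whose total RNA library held the most mitochondrial ribosomal RNA. Rn18s-rs5 and Mir6236 also lost their calls without it, and Mir6236 without Control replicate 1 as well. Arhgef26, a guanine nucleotide exchange factor, fell by 1.87 ± 0.41 and was called under all 16 alternatives. As for the 3 entries above, its total RNA was called higher, by 1.40 ± 0.30. Its polysome RNA was not called, at -0.46 ± 0.23. Of 353 tested entries annotated as pseudogenes, 122 (34.6%) were lower and 1 higher, where 9.81% and 6.72% of all genes were. Their median was -0.61 and that of all genes -0.04. Of 59 with names of ribosomal protein pseudogenes, 38 were lower, with a median of -0.89. Their reads may come from the parent genes.

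How far the changes were shared with loss of other nutrients was tested directly as the difference between the TE of NoArginine and that of another deprivation, a contrast that holds no Control library but shares the NoArginine libraries. TE differed from NoBCAA for 299 genes (2.29%), 229 higher without arginine (1.75%) and 70 lower (0.535%). It differed from NoGlutamine for 1181 (9.03%), 1064 higher (8.14%) and 117 lower (0.895%), and from NoMethionine for 3111 (23.8%), 2192 higher (16.8%) and 919 lower (7.03%). Scaling moved the first 2 counts, to 165 to 193 against NoBCAA and 588 to 645 against NoGlutamine under the other scalings, and the lysate block gave 541 against NoBCAA. Leaving out single lysates gave 122 to 178 against NoBCAA without a NoArginine lysate and 76 to 117 without a NoBCAA lysate. Against NoGlutamine the count was 731 and 743 without NoArginine replicates 2 and 3 and 601 to 759 without a NoGlutamine lysate, and against NoMethionine it was 2031 without NoArginine replicate 3. Compared with NoMethionine, TE was higher without arginine for 51 of 77 respiratory chain genes, 52 of 76 mitochondrial ribosomal proteins and 37 of 50 replication-dependent histones. No member of these 3 lists was lower, and the counts over all alternatives were 36 to 56, 36 to 60 and 24 to 48, with the lower ends in a fit of only the compared libraries, without NoArginine replicate 3 and without NoMethionine replicate 2. Against the shared Control libraries, the list medians of TE were below 0 in NoArginine, NoBCAA, NoGlutamine and NoMethionine. In that order they were -0.46, -0.46, -0.61 and -1.02 for the respiratory chain and -0.34, -0.45, -0.48 and -0.86 for the mitochondrial ribosome. For the histones they were -0.32, -0.36, -0.49 and -1.75, and for all genes -0.04, -0.12, -0.15 and -0.14.

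The other TOP mRNAs differed from the 3 other amino acid deprivations. Their TE was lower without arginine than without BCAA for 9 of 20, than without glutamine for 8 and than without methionine for 14, against 0.535%, 0.895% and 7.03% of all genes. Eef1a1 had log2 ratios of -1.64, -1.56 and -1.72 in NoArginine, against -0.79, -0.97 and -0.99 in NoBCAA, -1.22, -1.28 and -1.29 in NoGlutamine and -0.47, -0.44 and -0.56 in NoMethionine. The NoArginine lysates were the lowest throughout. The differences were -0.73 ± 0.08 from NoBCAA (edgeR adjusted p = 2.8e-06), -0.38 ± 0.08 from NoGlutamine (0.0025) and -1.15 ± 0.08 from NoMethionine (1.5e-11). Eef1a1 kept its call in all 3 tests under every alternative. From glucose-free cells it differed by 0.17 ± 0.08 (edgeR adjusted p = 0.24), not past the threshold. Against the shared Control libraries, the list median of TE was -0.21 in NoArginine, 0.10 in NoBCAA, 0.06 in NoGlutamine, 0.29 in NoMethionine and -0.42 in glucose-free cells, with the lowest median in glucose-free cells. Eef2 also differed from all 3, by -0.41, -0.33 and -0.90, but its first 2 calls were lost without NoArginine replicate 1 or 2 and without any one lysate of the other group. The list count against NoBCAA was 5 without NoArginine replicate 1 or 2 and 3 to 5 without a NoBCAA lysate, and against NoGlutamine it was 2, 4 and 5 without NoArginine replicates 1, 2 and 3 and 3 to 4 without a NoGlutamine lysate. Against NoMethionine it was 10 to 15 over all alternatives.

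Ribosomal proteins were lower without arginine than in NoBCAA for 7 of 34 40S and 13 of 49 60S genes, where 0.535% of all genes were. None was higher, where 1.75% of all genes were. Against NoGlutamine, 2 and 4 were lower and none higher, where 0.895% and 8.14% of all genes were. Over the alternatives 1 to 6 and 1 to 14 were lower. Against NoMethionine the 40S list had 3 lower and 2 higher and the 60S list 8 and 9, where 7.03% and 16.8% of all genes were. Over the alternatives the 60S list had 7 to 11 lower and 1 to 12 higher than in NoMethionine. Rps23 had log2 ratios of -2.31, -1.98 and -1.88 in NoArginine and -1.17, -1.22 and -1.29 in NoBCAA, without overlap, and the difference was -0.82 ± 0.12 (edgeR adjusted p = 0.00016). From NoGlutamine and NoMethionine Rps23 differed by -0.14 ± 0.12 and 0.16 ± 0.12, neither past the threshold. The counts against NoBCAA were 15 and 24 with the lysate as a block, 2 and 3 without NoArginine replicate 1, 3 and 7 without replicate 2, and 3 and 5 to 8 without a NoBCAA lysate. Rps23 was called against NoBCAA in each of these.

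Other single genes also separated the deprivations. Bckdk, the kinase that restrains catabolism of branched-chain amino acids, had log2 ratios of -1.16, -1.04 and -0.93 in NoArginine, against -1.71, -1.91 and -1.72 in NoBCAA and -1.75, -1.95 and -1.94 in NoGlutamine. It was higher without arginine by 0.74 ± 0.12 and 0.84 ± 0.12, and by 0.49 ± 0.12 than in NoMethionine. Against Control, however, the TE change of Bckdk was -0.48 ± 0.12 in NoArginine (edgeR adjusted p = 0.006). It was -1.22 in NoBCAA, -1.33 in NoGlutamine and -0.97 in NoMethionine, so of these media TE fell least without arginine. Txn2, mitochondrial thioredoxin, was lower than in NoBCAA by 0.95 ± 0.16 on the log2 scale. Against Control its change was -0.74 ± 0.16 in NoArginine and 0.20 ± 0.16 in NoBCAA. Fth1, the ferritin heavy chain, had log2 ratios of -2.48, -2.79 and -2.41 in NoArginine and -1.71, -1.65 and -1.72 in NoGlutamine, a difference of -0.88 ± 0.13 (edgeR adjusted p = 3.3e-05). All 3 NoArginine lysates were below those of NoGlutamine. Against Control, the TE change of Fth1 was -0.26 ± 0.13 in NoArginine, not past the threshold (edgeR adjusted p = 0.16), and 0.62 ± 0.13 in NoGlutamine. The differences of Bckdk from all 3 groups, of Txn2 from NoBCAA and of Fth1 from NoGlutamine were called under every alternative.

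Slc7a3 and Rars1 were not called against any of these 3 deprivations. Slc7a3 differed by 0.35 ± 0.16 from NoBCAA, -0.03 ± 0.16 from NoGlutamine and -0.26 ± 0.16 from NoMethionine, and Rars1 by -0.07 ± 0.11, -0.10 ± 0.11 and -0.25 ± 0.11. The last of these passed the threshold under 5 alternatives. Against Control, both genes were called higher in all 3 other media as well. Slc7a3 rose by 0.55 in NoBCAA, 0.92 in NoGlutamine and 1.16 in NoMethionine, and by 0.90 in NoArginine. Rars1 rose by 0.78, 0.80 and 0.96, and by 0.71 in NoArginine. Ass1 was lower without arginine than in NoMethionine, with a difference of -0.35 ± 0.10 (edgeR adjusted p = 0.0088), a call lost without NoMethionine replicate 2. Of the 27 arginine and polyamine genes, 0 were called against NoBCAA and 6 were higher than in NoGlutamine, where 2.29% and 8.14% of all genes were. The 6 became 1 to 7 over the alternatives, with 1 under RLE size factors and 2 without NoGlutamine replicate 1. Against NoMethionine 2 were higher and 3 lower (0 to 6 and 1 to 6 over the alternatives). No aminoacyl-tRNA synthetase was called against NoBCAA or NoGlutamine, whereas 9 of 22 were lower and 2 higher without arginine than in NoMethionine, where 7.03% and 16.8% of all genes were. The lower count was 5 to 11 over the alternatives, with 5 without NoArginine replicate 3 and 6 without NoMethionine replicate 3.

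**Figure D5:**
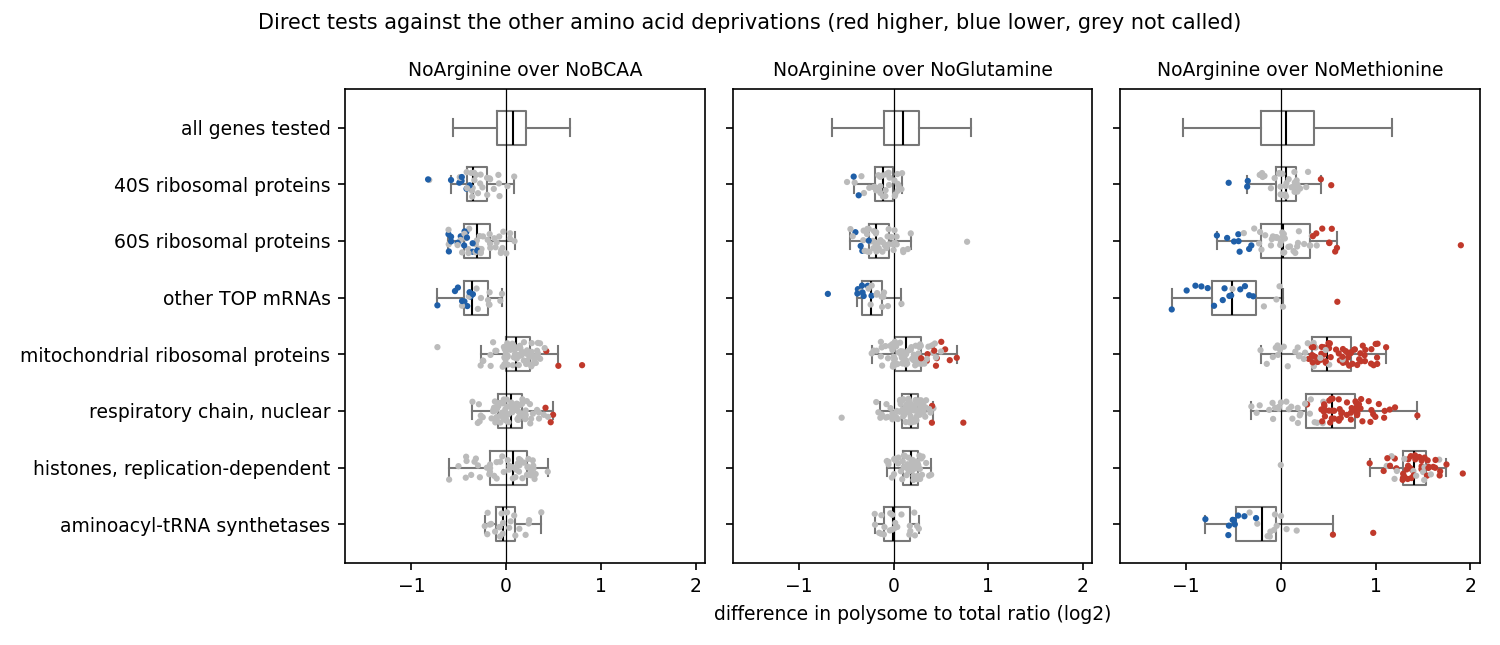
Difference in the log2 polysome to total ratio, NoArginine minus NoBCAA, NoGlutamine or NoMethionine, one panel for each, by gene list with all genes in the top row. Points are members, red where called higher in NoArginine, blue where called lower and grey where not called, and boxes give the median and quartiles. In the NoMethionine panel most points of the respiratory chain and mitochondrial ribosome lists are red (51 of 77 and 52 of 76), and 14 of 20 other TOP mRNAs are blue.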

How the data were processed

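Polysome and total RNA of CD8+ T cells were analysed from the deposited table of raw read counts per gene, whole numbers with no normalization, per the file headers. Per the submitters' processing notes, FastQC, MultiQC, Trimmomatic, STAR, HTSeq and edgeR were used with the build GRCm39. Their versions and roles, the strand setting and the rule by which genes entered the table are not given in the sources used here. The 18 labelled libraries outside the table were not analysed here.

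The tools were R 4.3.3, edgeR 4.0.16 and limma 3.58.1. The filter was filterByExpr (minimum count 10), scaling was by TMM, and all 36 nutrient libraries entered one fit of 12 groups (24 residual degrees of freedom). Translational efficiency (TE) was the interaction contrast in edgeR's quasi-likelihood F test, with Benjamini-Hochberg adjustment over all 13072 genes and calls at 0.05. Polysome and total RNA were also fitted alone. The standard error is the absolute log2 change divided by the square root of F. Ratios per lysate are log2 of polysome over total CPM, each plus 0.1. The TE test was tested on simulated data for this comparison over 13072 genes. It recovered 100% of 100 genes changed by 1 log2 unit and 50% of 100 changed by 0.5, with 8 false calls. The simulated counts had the same spread for every gene and no tie between the libraries of 1 lysate. Only these genes were changed, far fewer than the 2162 called in the data. These rates therefore need not hold for the real test.

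Total and polysome library of 1 lysate are paired by the protocol, which splits each lysate. Their residuals correlated at a mean of 0.055 (-0.032 to 0.198). Equal replicate numbers of NoArginine and Control were not taken as pairs, and the labels do not say if they mark a shared batch. Their residuals correlated between -0.078 and 0.169, a range much like that of the lysate pairs, so this check cannot tell pairs from other libraries. The fit leaves both pairings out, and both blocks were run as alternatives.

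Alternatives were other scalings, other count filters, DESeq2 1.42.0, a fit of only the compared libraries, blocks, and each NoArginine and Control lysate left out. Leaving out lysates of the other deprivations was chosen after seeing the data. The members, gene lists and tests were chosen with earlier results of these data known. Genes were named as the 15 with the highest and the 15 with the lowest TE among called genes with a symbol, a mean of at least 5 CPM and ratios that did not overlap, up to 6 called members of each list by adjusted p (for lists with none, the 2 most abundant), a fixed list, the 6 highest and lowest of each direct test, and 8 per direction called in polysome but not total RNA. Of these the text gives those its groups turn on, and a few are not reported here. Symbols were matched to RefSeq for 11556 tested genes (GRCm38.p6). Protein length and composition were not used here.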

Additional observations from a re-analysis of the deposited data

How the results depend on the processing

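Of 154 named genes called for TE, 78 were called under all 16 alternatives run against Control, 76 lost their call under at least 1 and 0 changed sign. Calls of higher TE, 879 in the report, were 1408 with scale factors computed without ribosomal RNA and mitochondrial entries, 513 in a fit of only the compared libraries and 532 without the total RNA library of NoArginine replicate 2. Calls of lower TE, 1283 in the report, were 813 in the fit of only the compared libraries. The replicate block by lysate gave 1401 higher and 1624 lower, and the block by replicate number 1253 and 1615. In total RNA, 1168 calls became 646 without that library. Against NoBCAA, 299 calls became 178 with RLE size factors, 165 and 193 with the other scalings, 125 in the fit of only the compared libraries, 541 with the lysate block and 507 with the number block. Against NoGlutamine, 1181 calls became 588 with RLE factors, 645 and 630 with the other scalings, and 801 in DESeq2, 1673 with the lysate block and 1630 with the number block. Against NoMethionine, 3111 calls became 2068 in the fit of only the compared libraries.

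With single lysates left out, higher TE calls were 142 to 1351, lower ones 384 to 1552, total RNA calls 617 to 1243, polysome calls 3523 to 5318, and calls against NoBCAA 76 to 306, NoGlutamine 601 to 1263 and NoMethionine 2031 to 3493. The cause of these differences was not tested. The higher share of TE calls was 40.66%, and 61.19% and 49.86% with the 2 TMM alternatives. The list medians of arginine and polyamine, initiation factor, histone, tubulin, lysosome, T cell transcription factor, immediate early and MondoA target genes changed sign under at least 1 alternative. In the simulation, which used the same spread for all genes and changed few of them, changes of 0.5 log2 units were recovered in 50% of genes. The rate in the data may differ, and a missing call does not show that TE was unchanged.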

Other observations

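Further gene groups had calls in both directions, where 6.72% of all genes were higher and 9.81% lower. Of 55 ribosome biogenesis genes, 9 rose and 5 fell (median TE change 0.20), and 20 rose with the lysate as a block, 1 without NoArginine replicate 1 and 3 without replicate 2. Polr1b, a core subunit of RNA polymerase I, rose by 0.61 and the small-subunit processing factor Utp4 by 0.42, while Rcl1, which acts in the same processing, fell by 0.41. Of 27 entries for glycolysis and HIF targets, 7 rose and 3 fell. The phosphofructokinase Pfkp, the pyruvate kinase Pkm and the glucose transporter Slc2a3 rose by 0.63, 0.49 and 0.53, and the mitophagy receptor Bnip3 fell by 0.71. Without NoArginine replicate 1, 0 of these entries were called higher, and Pfkp and Pkm lost their calls with that lysate alone.

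Within complexes, members also differed. Of 34 proteasome genes, 2 rose and 5 fell, where 6.72% and 9.81% of all genes did. Psmd1 rose by 0.69 and Psmd2 by 0.45, both large subunits of the regulatory particle base. Psmd8, Psmb9, Psma7 and Psmd7 fell by 0.27 to 0.63, and Psmd7 lost its call under 8 of 16 alternatives. Of 20 genes of serine, folate and glutathione metabolism, Mthfd1 and Mthfd1l rose by 0.59 and 0.51, Shmt1 by 0.38, and Mthfd2 and Gsr fell by 0.42 and 0.30. Of 35 lysosome and autophagy genes, 2 rose, among them the proton pump subunit Atp6v1a by 0.67, and 8 fell, among them Map1lc3b by 0.49 and Wipi1 by 0.66. The 8 were 1 without NoArginine replicate 1, 4 without Control replicate 2 and 3 in a fit of only the compared libraries. Of 21 snoRNA host and other long non-coding transcripts, Neat1 fell by 0.69 and Snhg15 by 0.41. Neat1 lost its call under 4 and Snhg15 under 10 of 16 alternatives, and 0 of the list were called without NoArginine replicate 1, without replicate 2 or without Control replicate 1. With single lysates left out, the proteasome list had 1 to 6 genes higher and 1 to 4 lower, and the folate list 1 to 7 and 1 to 2, with the low ends without NoArginine replicate 1. None of 29 genes with long mRNAs for chromatin regulators was called, and 0 of 10 mitochondrially encoded mRNAs.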
